A study of Mus musculus with 32 samples.

Results

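B cell receptor signalling genes were examined in 32 lymphomas of Eµ-myc mice, in which Myc is expressed in B lineage cells from the enhancer of the immunoglobulin heavy chain locus. The set holds 9 genes chosen by name: the receptor chains Cd79a and Cd79b, the kinases Lyn, Blk, Syk and Btk, the adaptors Blnk and Pik3ap1, and the phospholipase Plcg2. A gene was measured where an Affymetrix Mouse430_2 probe set carried its symbol alone, and the probe set with the highest mean led where there were several. That gave 8 of the 9 genes, among 11228 genes tested in all. Lyn, the kinase that starts signalling in many B cells, is not analysed here, because no probe set in the annotation used carried its name alone.

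The B cell receptor is a membrane immunoglobulin bound to a heterodimer of the Cd79a and Cd79b proteins, whose cytoplasmic tails carry the tyrosine motifs that transmit the signal. The Src family kinases Lyn and Blk phosphorylate these motifs, Syk docks on them, and the adaptor Blnk brings Btk and Plcg2 together so that Plcg2 can make the messengers that release calcium and activate protein kinase C. Pik3ap1, also called BCAP, links the receptor to phosphoinositide 3-kinase. In precursor B cells the same Cd79 chains signal from the pre-B cell receptor, in which the surrogate light chains made from Vpreb1 and Igll1 stand in for a rearranged light chain.

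All tumours carried the Eµ-myc transgene and were taken when the mice had lymphoma or looked ill. The labels form 1 group with no control, so the values describe how tumours differed from each other. Tumours are named D1 to D32 as in the labels, with 1 array each. RNA came from frozen tissue or from dissociated cells, without a statement of which applied to a given tumour or whether any tumours shared a mouse. The p-values treat the tumours as independent samples, which could not be checked, and would be too small if tumours shared a mouse. Values are log2 signals made by the robust multi-array average (RMA), which equalises the arrays, so that a change common to most genes could not be seen. Levels were compared between tumours for the same probe set and never between probe sets.

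Some tumours stood apart before any member was considered. D2 and D24 had the highest T cell scores (2.37 and 3.05), where a score is the mean over a list of the standardised log2 values. Over the 7 T cell genes tested, the mean log2 level was 9.17 in D2 and 9.81 in D24, against 5.78 to 8.34 in the other 30 tumours. The T cell receptor chain gene Cd3g was at 10.64 in D2 and 11.41 in D24, against a median of 5.87 in the others. D2 and D24 also had the highest mature B cell scores (1.47 and 1.78) and the lowest precursor B cell scores (-0.68 and -0.89). A further 11 tumours (D3, D4, D9, D12, D15, D16, D18, D20, D25, D29 and D30) carried salivary gland genes, with a mean of 6 such genes of at least 10.25, against at most 4.84 in the other 21. A difference between 3' and 5' control probe sets, read as RNA quality, lay between 0.26 and 0.96. Its largest absolute Pearson correlation with any of the 8 genes was 0.22 over all tumours, for Blnk. By ranks the largest was that of Btk, with a Spearman correlation of -0.33 (permutation p = 0.0646). Without D9 and D19, where this difference was highest, the Pearson correlation of Btk with it was -0.37. A part of RNA quality in the Btk values is therefore not excluded. The mean log2 level of 10 B lineage regulators lay between 9.80 and 10.71 over the tumours. This mean joins genes that went different ways in D2 and D24. Ebf1 was at 6.24 in D24, against at least 8.37 in the tumours other than D2 and D24. Ikzf3 was higher in D2 and D24 than in all others.

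Blk varied most of the 8 genes. It had a standard deviation (SD) of 1.31 on the log2 scale (n = 32), which ranked 132 of 11228 genes, and was the only one of the 8 with an SD over 1. Over all genes tested, 3.38% had an SD over 1. The other SDs were 0.58 for Pik3ap1, 0.52 for Syk, 0.49 for Cd79a, 0.35 for Cd79b, 0.33 for Blnk, 0.26 for Plcg2 and 0.25 for Btk. The median SD was 0.42 over the 8 genes and 0.28 over all genes, and 6 of the 8 lay above the median of all genes. With D2 and D24 left out, the SD of Cd79a was 0.25 and that of Pik3ap1 was 0.44, while that of Blk was 1.32.

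**Figure D1:**
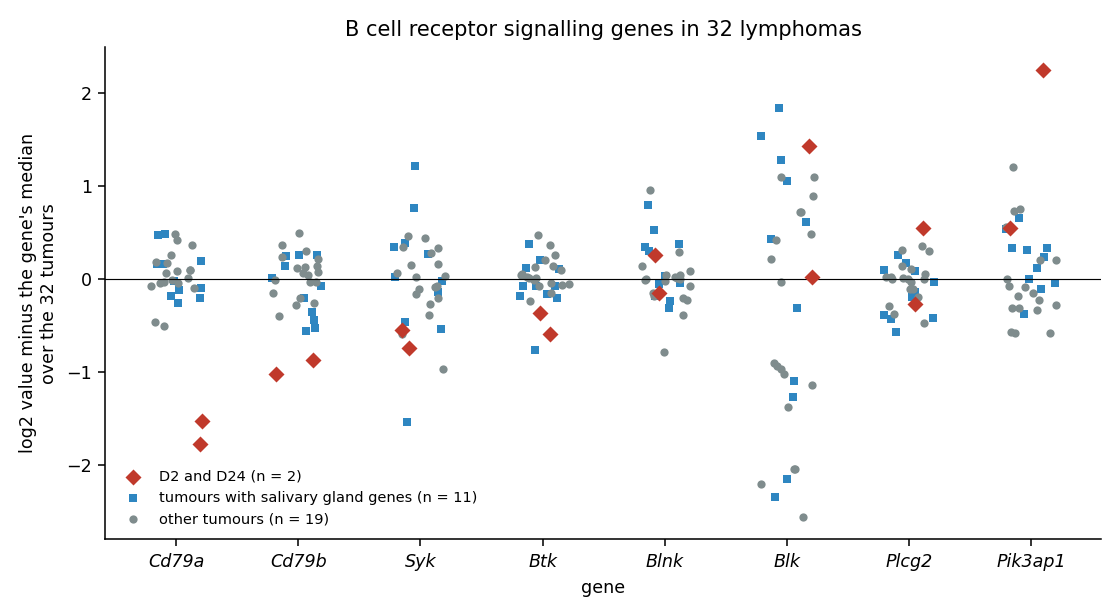
Log2 value of each of the 8 measured genes in each of the 32 tumours, drawn as the difference from that gene's median (vertical axis, log2 units). Red diamonds are D2 and D24, blue squares the 11 tumours with salivary gland genes and grey circles the other tumours. Blk is spread over 4.41 log2 units without a gap, whereas Cd79a is tight except for D2 and D24, and Pik3ap1 is far above its median in D2.

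Cd79a (chromosome 7) had its lowest log2 values in D2 (9.37) and D24 (9.61), a median of 11.14 and its highest values in D23 and D15 (11.63 in each). The lowest value among the other 30 tumours was 10.64, so D2 and D24 lay below all of them. Relative to the median of the other 30, the level of Cd79a was 0.285 times in D2 and 0.338 times in D24. Cd79b (chromosome 11) was also lowest in these tumours, at 11.26 in D2 and 11.11 in D24, against 11.58 to 12.63 in the others. These levels were 0.537 times the median of the others in D2 and 0.484 times in D24. In bulk samples, fewer cells of a type and less RNA per cell cannot be told apart. The same tumours carried the T cell genes given above. They were also high in the 2 NK cell genes tested, whose mean log2 level was 7.66 in D2 and 9.42 in D24, against at most 6.38 in the others. The part of these cells in the low Cd79 values was not tested.

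Among the kinases, Syk (chromosome 13), which docks on the phosphorylated receptor tails, was lowest in D18 (9.18) and D14 (9.76), had a median of 10.72 and was highest in D29 (11.94) and D25 (11.49). Its 4 probe sets varied together, with correlations (r) of 0.85, 0.79 and 0.64 to the leading one over the 32 tumours, and all 4 were highest in D29. D14 or D2 was lowest in the other 3 probe sets, so the low end of Syk differs between probe sets and the high end does not. Btk (chromosome X), the kinase that activates Plcg2, was lowest in D30 (9.28) and D2 (9.44), had a median of 10.04 and was highest in D22 (10.52). The whole range of Btk was 2.36-fold.

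Blk (chromosome 14), a Src family kinase found mainly in B cells, had its lowest log2 values in D31 (6.68) and D20 (6.89), a median of 9.24 and its highest values in D12 (11.08) and D25 (10.78). This was a 21.2-fold range. It lay under 8 in 8 tumours, over 10 in another 8 and between these levels in 16, with no gap that separated groups. Both extremes held tumours with salivary gland genes and tumours without them: Blk was between 6.89 and 11.08 in the 11 salivary tumours, with a median of 9.67, and between 6.68 and 10.67 in the other 21, with a median of 9.21. In D2 and D24, where the Cd79 chains were lowest, Blk was at 9.26 and 10.67, against a median of 9.07 in the other 30.

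The adaptor Blnk (chromosome 19) had its lowest log2 values in D14 (10.87) and D32 (11.28), a median of 11.66 and its highest values in D31 (12.62) and D29 (12.47). Pik3ap1, on the same chromosome, was lowest in D14 and D7 (7.28 in each), had a median of 7.86 and was highest in D2 (10.12), followed by D31 (9.07). D2 thus stood 2.27 log2 units, or 4.84-fold, above the median of the other 30 tumours, and D24 stood 0.57 above it. Both probe sets of Pik3ap1 were highest in D2 and correlated with an r of 0.79. Plcg2 (chromosome 8), the phospholipase, was lowest in D18 (10.41), had a median of 10.98 and was also highest in D2 (11.54). D2 therefore combined the lowest Cd79a with the highest Plcg2 and Pik3ap1. With 1 array per tumour, neighbours in any of these orders cannot be told apart.

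Promoters are shown for 1 gene of each kind, the receptor chain Cd79a, the adaptor Blnk and the kinase Btk, to set their letters beside the levels of the B lineage regulators. The windows run from 250 bases before to 50 bases after a start site in RefSeq, build GRCm38.p6, and capitals mark motif matches on either strand. The Cd79a window (chr7:24897247-24897546, plus strand) holds an E box at position -154 and a PU box at -140. The Blnk window (chr19:40994172-40994471, minus strand) holds an E box at -160 and the octamer at -130. The Btk window (chrX:134583091-134583390, minus strand) holds a PU box at 10.
Cd79a: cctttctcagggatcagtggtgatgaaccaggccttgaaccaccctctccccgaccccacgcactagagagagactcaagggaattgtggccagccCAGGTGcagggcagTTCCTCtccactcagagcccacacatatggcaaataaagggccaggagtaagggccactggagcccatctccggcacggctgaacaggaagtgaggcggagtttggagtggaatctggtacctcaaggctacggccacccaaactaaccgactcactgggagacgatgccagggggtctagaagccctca
Blnk: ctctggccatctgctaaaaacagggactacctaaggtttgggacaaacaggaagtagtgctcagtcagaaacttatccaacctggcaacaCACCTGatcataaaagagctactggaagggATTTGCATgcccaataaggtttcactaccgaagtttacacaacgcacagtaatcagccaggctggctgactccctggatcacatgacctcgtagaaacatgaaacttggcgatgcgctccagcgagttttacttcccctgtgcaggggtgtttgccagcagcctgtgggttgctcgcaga
Btk: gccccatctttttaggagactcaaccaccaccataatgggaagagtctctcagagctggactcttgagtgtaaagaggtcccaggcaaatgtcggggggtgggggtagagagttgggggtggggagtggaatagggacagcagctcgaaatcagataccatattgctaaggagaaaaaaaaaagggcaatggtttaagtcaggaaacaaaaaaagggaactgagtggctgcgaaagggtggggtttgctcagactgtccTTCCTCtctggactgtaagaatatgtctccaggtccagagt

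The motifs searched were the octamer ATTTGCAT, bound by Oct factors with the coactivator Pou2af1, the EBF core CCCNNGGG, bound by Ebf1, the PU box GAGGAA, bound by Spi1 and Spib, and the E box CAGGTG, bound by the E protein Tcf3. Windows were given for 6 of the genes, 7 in all since Syk has 2 starts, and none were used for Cd79b, Blk or Lyn. The octamer was in 1 of the 7 windows (Blnk) and in 1.74% of 32851 windows of all genes. The PU box was in 4 of 7 against 28.3% of all windows, the E box in 6 of 7 against 20.2%, and the EBF core in 0 of 7 against 13.7%. Only exact matches to these letters were counted, so a window without a match may still hold a related site. A match describes letters in a window and no binding was measured. Of the regulators, Ebf1 was at 9.25 in D2 and 6.24 in D24, against 8.37 to 10.67 in the other 30 tumours. Tcf3 was at 10.64 in D2 and 9.93 in D24, against 10.79 to 11.89 in the others. Pou2af1 was at 10.87 in D24, below its lowest value of 11.89 in the others, but at 12.30 in D2. D24 thus had the lowest values of 3 B lineage regulators, and in D2 the B cell factor Pax5 was lowest (7.16). Others were high in these tumours: Ikzf3 was at 11.07 in D2 and 11.54 in D24, against at most 10.41 in the others, and Spi1 at 9.58 in D2 and 9.60 in D24, against at most 9.55 in the others. Of the 10 regulators tested, 2 were thus above all other tumours in both D2 and D24, and 1 (Tcf3) was below.

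The question of whether the genes of the pathway rise and fall together was addressed with 28 pairs. Each gene's log2 value, scaled to an SD of 1, served as an axis on which all other genes were fitted with limma. A gene counted as called at a Benjamini-Hochberg adjusted p under 0.05 over all genes tested, and a pair counted as called when both of its fits passed. Only the Cd79a and Cd79b pair was called. Of the 28 correlations, 16 were positive and 12 negative, from -0.42 to 0.73 with a median of 0.06. Among the 30 tumours other than D2 and D24 they ran from -0.31 to 0.49, with a median of 0.17. The share of all genes called, either direction, was 13.7% on the Cd79a axis, 9.26% on Cd79b, 0.107% on Syk, 15.5% on Btk, 1.53% on Blnk, 2.9% on Blk, 0.873% on Plcg2 and 1.95% on Pik3ap1.

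Cd79a and Cd79b, whose proteins form 1 dimer, correlated with an r of 0.73 (permutation p = 3e-05) and a rho of 0.57 (permutation p = 0.00077, both two-sided, n = 32 tumours). In limma, Cd79b rose by 0.26 log2 units per SD of Cd79a (SE 0.04, adjusted p = 0.000159), and Cd79a rose by 0.36 per SD of Cd79b (SE 0.06, adjusted p = 0.000726). The pair was still called when any 1 tumour was left out. Without D2 and D24 together, which are also the 2 tumours farthest from the median, r was 0.45 and the pair was no longer called (adjusted p = 0.301 and 0.259). Without the salivary tumours r was 0.84. The size of the relation thus depended on the 2 tumours with the T cell genes, and the other 30 tumours gave a smaller positive value.

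**Figure D2:**
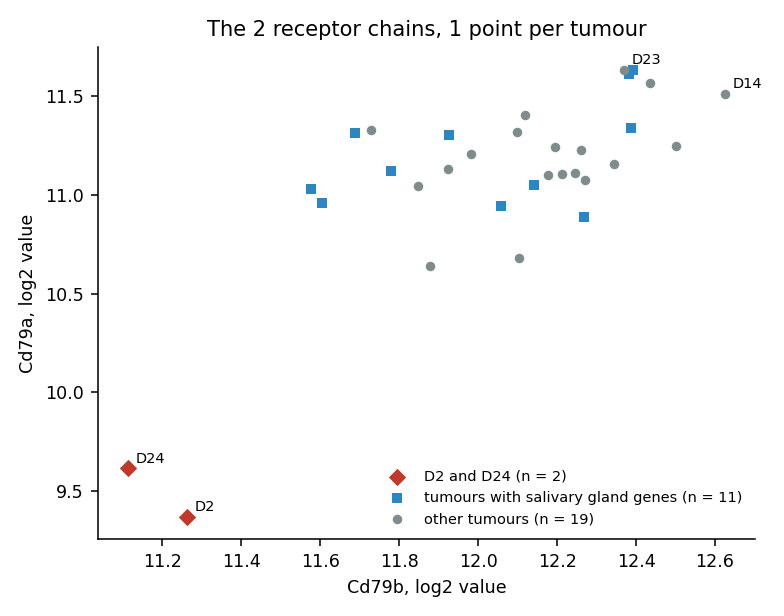
Log2 value of Cd79a against that of Cd79b, with 1 point per tumour and colours for D2 and D24, the 11 tumours with salivary gland genes and the other tumours. D2 and D24 lie apart at the lower left, and the other 30 tumours form a loose upward band (r of 0.45).

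Cd79b formed the only other pairs that passed in 1 of the 2 fits. With Syk, r was 0.50 (permutation p = 0.00385), rho was 0.49 (permutation p = 0.00511) and r without D2 and D24 was 0.43. Syk passed on the Cd79b axis (adjusted p = 0.0343) and Cd79b did not pass on the Syk axis (adjusted p = 0.174). With Btk, r was 0.46 (permutation p = 0.00926), rho was 0.48 (permutation p = 0.00562) and r without D2 and D24 was 0.23. Cd79b passed on the Btk axis (adjusted p = 0.0489), whereas Btk did not on the Cd79b axis (adjusted p = 0.0724). Blk did not pass with any other of the genes, and its r with them ran from -0.28 for Plcg2 to 0.19 for Btk.

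Each gene was then set against 6 measures of tumour state: scores for precursor B cell, mature B cell, T cell, myeloid and proliferation genes, and the Myc level. Of these 48 tests, 13 passed. Of all genes, 6.63% rose and 7.05% fell with the mature B cell score, and 9.94% rose and 11.5% fell with the T cell score. With the myeloid score 11.2% fell, with the proliferation score 17.6% rose and with Myc 9.67% fell. On the precursor B cell score 2.4% were called in either direction. The shares of all genes without D2 and D24 are not given here for these axes. Of the 13, 4 also passed without D2 and D24: Blk with the mature B cell score, Btk with the myeloid and proliferation scores, and Plcg2 with the proliferation score. Blk with the mature B cell score passed under every alternative tried, and it was the only one of the 13 to do so. Syk passed on none of the 6 axes.

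**Figure D3:**
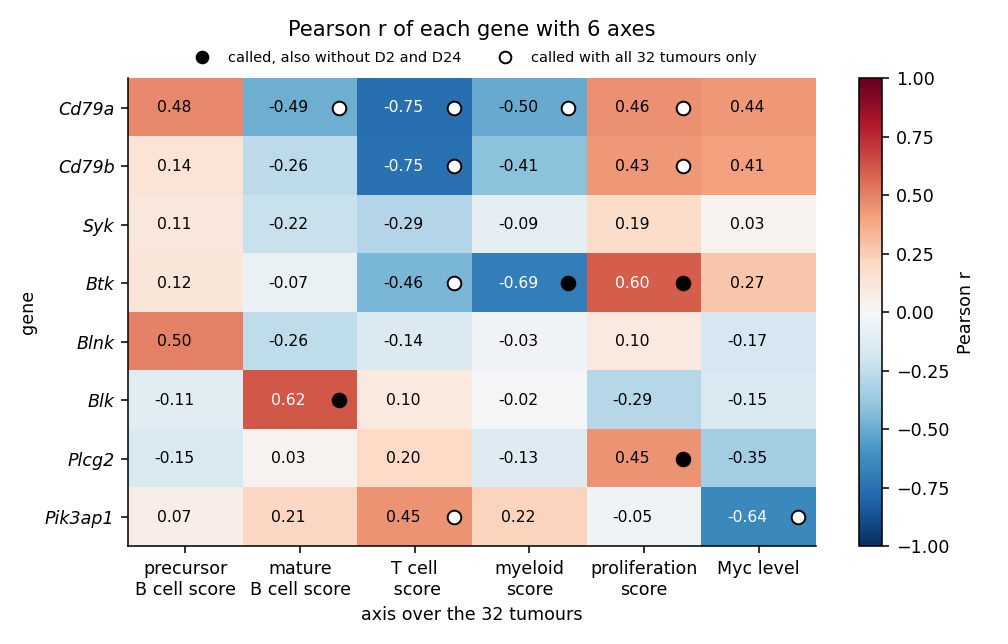
Pearson r of each of the 8 genes (rows) with 6 measures of tumour state (columns) over the 32 tumours, on a colour scale from -1 (blue) to 1 (red). Black dots mark relations called by limma with and without D2 and D24, and white dots those called with all 32 tumours but not without these tumours. The 4 black dots are Blk with the mature B cell score, Btk with the myeloid and proliferation scores and Plcg2 with the proliferation score.

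Blk rose with the mature B cell score, which is the mean of 12 genes including those of antigen presentation. Blk was 0.81 log2 units higher per SD of the score (SE 0.18, adjusted p = 0.00377 in limma), where 6.63% of all genes were called as rising. Over the 32 tumours r was 0.62 (permutation p = 0.00013) and rho was 0.64 (permutation p = 0.00013). The r was 0.64 without D2 and D24, which also lay farthest from the median score, and 0.67 without the salivary tumours. D16 had the lowest score and a Blk value of 7.08, D20 the next lowest score and a value of 6.89. D29 went the other way, with a score of -0.90 and a Blk value of 9.86, and D25 had the second highest Blk value with a score of -0.27.

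**Figure D4:**
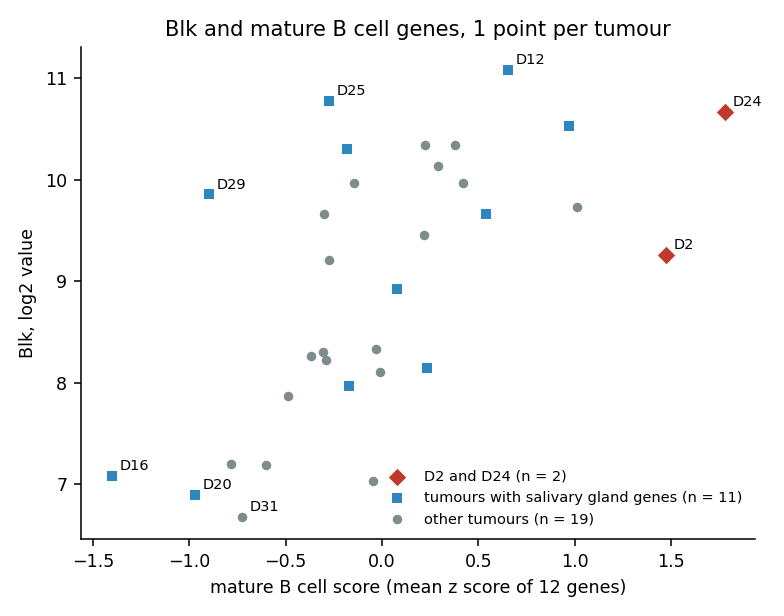
Log2 value of Blk against the mature B cell score (mean z score of 12 genes), with 1 point per tumour. Points run from D16, D20 and D31 at the lower left to D12 and D24 at the upper right (r of 0.62, or 0.64 without D2 and D24), and D29 lies above the band.

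Gene by gene, 5 of the 12 mature B cell genes tested rose along the Blk axis and 0 fell, where 1.14% of all genes rose and 1.76% fell. This is the same relation seen from the other side and adds no support to it. All 5 belong to the class II pathway of antigen presentation: the chains H2-Aa, H2-Ab1 and H2-Eb1, the invariant chain Cd74 and the class II transactivator Ciita. H2-Aa was between 9.75 and 13.37 log2 units with a median of 12.05 over the tumours, and rose by 0.48 per SD of Blk (SE 0.10, adjusted p = 0.00644). Ciita rose by 0.59 per SD of Blk (SE 0.12, adjusted p = 0.00683), and Cd74 by 0.59 (SE 0.15, adjusted p = 0.0236). The same number, 5 of 12, rose without D2 and D24, where 1.3% of all genes rose. Without the 11 salivary tumours, with 21 tumours left, 1 of the 12 rose, namely Cd74 (adjusted p = 0.0145). The other class II genes had adjusted p from 0.0921 to 0.168. The r with Blk over all tumours and in that fit was 0.66 and 0.66 for H2-Aa and 0.60 and 0.58 for H2-Ab1. It was 0.62 and 0.63 for H2-Eb1, 0.65 and 0.57 for Ciita, and 0.57 and 0.81 for Cd74. The B cell surface gene Ms4a1, also in the list, had an adjusted p of 0.239 over all tumours (r = 0.36). Without the salivary tumours its adjusted p was 0.0555 (r = 0.75). For the chemokine receptor gene Cxcr5 the adjusted p was 0.585 (r = 0.20) and 0.81 (r = 0.17).

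Of 13 precursor B cell genes, 2 fell along the Blk axis and 0 rose. These were the surrogate light chain gene Igll1, which fell by 0.96 log2 units per SD of Blk (SE 0.27, adjusted p = 0.0409), and the transcription factor gene Erg, which fell by 0.54 (SE 0.15, adjusted p = 0.045). Their adjusted p was 0.056 and 0.0527 without D2 and D24, and 0.236 and 0.414 without the salivary tumours. Vpreb1, the partner of Igll1, had a slope of -0.96 (SE 0.35, adjusted p = 0.132). The recombinase gene Rag1 had a slope of the other sign (1.07, SE 0.46, adjusted p = 0.209). Blk itself had an r of -0.11 with the precursor B cell score.

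Cd79a went the other way along the mature B cell score, by -0.24 log2 units per SD (SE 0.08, adjusted p = 0.0333), where 7.05% of all genes were called as falling. Here r was -0.49 (permutation p = 0.00593) and rho was -0.17 (permutation p = 0.358). Without D2 and D24, r was 0.11 and the slope was 0.03 (adjusted p = 0.82), so the negative sign rested on these tumours. The call was also lost when D2, D24 or D29 alone was left out (adjusted p = 0.215, 0.269 and 0.0533). No gene of the 8 passed on the precursor B cell score, where 2.4% of all genes were called in either direction. The largest correlations there were those of Blnk (r = 0.50, permutation p = 0.00352; rho = 0.49, permutation p = 0.00461; r = 0.48 without D6 and D25; adjusted p = 0.0846) and Cd79a (r = 0.48, permutation p = 0.00683; rho = 0.47, permutation p = 0.00723; r = 0.53 without D6 and D25; adjusted p = 0.1). Blnk passed when D2, D9 or D29 was left out, with an adjusted p of 0.0478, 0.0476 and 0.0284.

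The receptor chains fell most clearly along the T cell score. Cd79a fell by 0.37 log2 units per SD of the score (SE 0.06, adjusted p = 2.6e-05) and Cd79b by 0.26 (SE 0.04, adjusted p = 3.9e-05), where 11.5% of all genes fell. For Cd79a, r was -0.75 (permutation p = 0.00044) and rho was -0.29 (permutation p = 0.111), and r was -0.18 without D2 and D24. For Cd79b, r was -0.75 (permutation p = 1e-05, the smallest value these permutations allow), rho was -0.53 (permutation p = 0.00196) and r was -0.49 without D2 and D24. Btk fell by 0.12 per SD (SE 0.04, adjusted p = 0.0425) and Pik3ap1 rose by 0.26 (SE 0.09, adjusted p = 0.0394), where 9.94% of all genes rose. Without D2 and D24 none of these 4 was called, with an adjusted p of 0.709 for Cd79a, 0.108 for Cd79b, 0.757 for Btk and 0.938 for Pik3ap1. All 7 T cell genes fell along the Cd79a axis, where 7.54% of all genes fell. Without D2 and D24, 0 of them did, and only 0.0534% of all genes were called there in either direction. The 7 genes make up the T cell score, so these counts repeat the relation and add no support to it.

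Btk fell with the myeloid score by 0.18 log2 units per SD (SE 0.03, adjusted p = 0.000391), where 11.2% of all genes fell. The r was -0.69 (permutation p = 4e-05), rho was -0.61 (permutation p = 0.00024), and r was -0.49 without D24 and D30, the tumours farthest from the median score. D30, a tumour with salivary gland genes, had the lowest Btk value and the highest myeloid score (2.38). The relation was called without D2 and D24 (r = -0.65) and with any 1 tumour left out, and it was not called without the 11 salivary tumours (r = -0.48, adjusted p = 0.11) or without D24 and D30 together (adjusted p = 0.0837). Of 12 myeloid genes, 9 fell along the Btk axis and 0 rose, where 7.29% of all genes fell. These genes make up the myeloid score, so such counts repeat the relation and add no support to it. Leaving out D2 and D24 gave 7 that fell, where 5.16% of all genes fell. Leaving out the salivary tumours gave 0, where 2.18% did. The complement gene C1qc fell by 0.52 per SD of Btk (SE 0.10, adjusted p = 0.00167) and the lipopolysaccharide coreceptor gene Cd14 by 0.66 (SE 0.15, adjusted p = 0.00369).

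Cd79a also fell with the myeloid score, by 0.24 log2 units per SD (SE 0.07, adjusted p = 0.0176), with an r of -0.50 (permutation p = 0.00716), a rho of -0.38 (permutation p = 0.0346) and an r of -0.46 without D24 and D30. Leaving out D24 alone ended this call (adjusted p = 0.107).

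Along the proliferation score 4 genes rose, where 17.6% of all genes rose. Btk rose by 0.15 log2 units per SD (SE 0.04, adjusted p = 0.0025; r = 0.60, permutation p = 0.00046; rho = 0.34, permutation p = 0.0606; r = 0.32 without D24 and D30). The call was lost without D30 alone (adjusted p = 0.105), the tumour with the lowest proliferation score (-2.14). Btk was also not called without the salivary tumours (adjusted p = 0.192) or with other-cell scores as a covariate (adjusted p = 0.142). Plcg2 rose by 0.12 (SE 0.04, adjusted p = 0.0358; r = 0.45, permutation p = 0.00912; rho = 0.48, permutation p = 0.0058; r = 0.35 without D24 and D30). It was not called when D5, D18, D24, D25 or D30 was left out, with adjusted p from 0.0524 to 0.0987. Without the salivary tumours the r of Plcg2 was 0.13 and its slope was 0.04 (adjusted p = 0.676). Cd79a (adjusted p = 0.0291; r = 0.46, permutation p = 0.0156; rho = 0.33, permutation p = 0.0673) and Cd79b (adjusted p = 0.0426; r = 0.43, permutation p = 0.0139; rho = 0.34, permutation p = 0.0614) were the others. Without D24 and D30 their r was 0.42 and 0.46. Cd79a lost its call without D2 or D24, and Cd79b lost its call in 9 of the 32 fits with 1 tumour left out. Along the Btk axis 5 of 13 proliferation genes rose, where 8.23% of all genes rose. They were 3 without D2 and D24 (5.81% of all genes) and 2 without the salivary tumours (2.32% of all genes). These genes make up the proliferation score, so such counts repeat the relation and add no support to it. The replication helicase gene Mcm2 rose by 0.18 per SD of Btk (SE 0.04, adjusted p = 0.00399), and its adjusted p was 0.00395 without D2 and D24 and 0.196 without the salivary tumours.

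Pik3ap1 was the gene of the 8 that passed on the Myc axis. It fell by 0.37 log2 units per SD of Myc (SE 0.08, adjusted p = 0.00154), where 9.67% of all genes fell, with an r of -0.64 (permutation p = 0.00023) and a rho of -0.56 (permutation p = 0.00091). D2 had the highest Pik3ap1 and the lowest Myc (9.81), and D7 had one of the lowest Pik3ap1 values and the highest Myc (12.30). Without D2 and D7 r was -0.37, and without D2 alone the relation was not called (adjusted p = 0.0788). Without the salivary tumours 3 more genes passed, with Btk, Cd79a and Cd79b rising with Myc (adjusted p = 0.0179, 0.0341 and 0.0437). The share of all genes rising with Myc is not given here, so these added calls are not set against it. Over the alternatives other than leaving out 1 tumour, between 413 and 2597 of all genes were called on the Myc axis. The tumours left in the fit without the salivary tumours still held D2 and D24, where Myc was low (9.81 and 10.55) and both Cd79 chains were lowest. With only D2 and D24 left out, r with Myc was -0.06 for Btk, -0.27 for Cd79a and 0.03 for Cd79b, and none of the 8 genes was called.

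**Figure D5:**
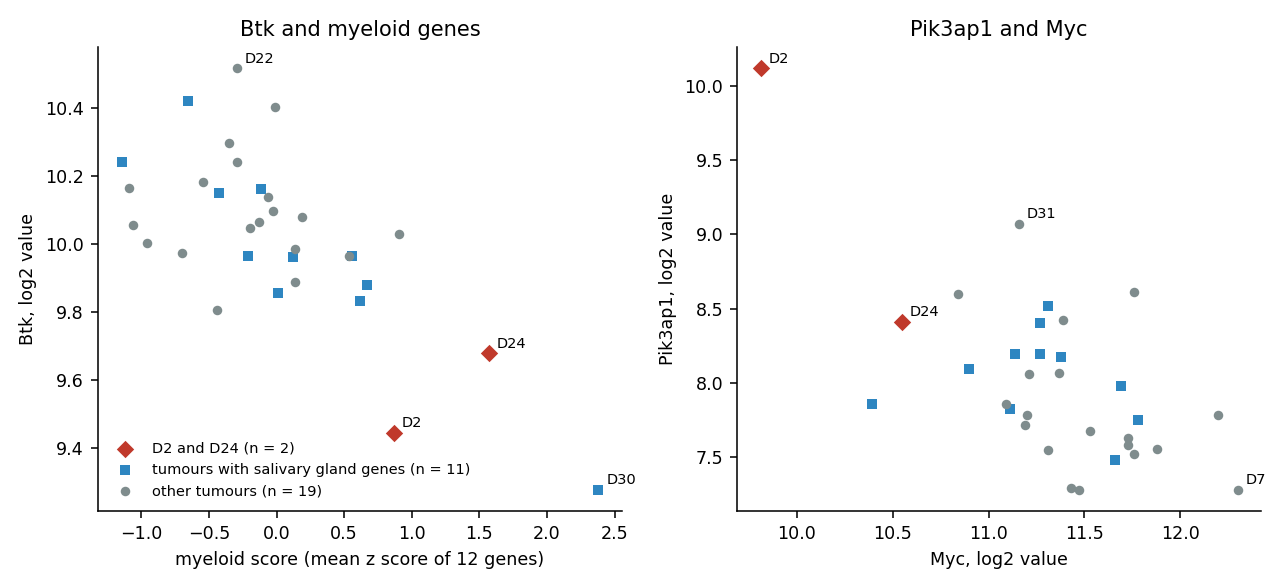
Left, log2 value of Btk against the myeloid score (mean z score of 12 genes); right, log2 value of Pik3ap1 against that of Myc, with 1 point per tumour. Btk goes down across the range of the score, with D30, D2 and D24 at its low end, and Pik3ap1 is lower where Myc is higher, with D2 far from the rest at the upper left.

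Other genes of the pathway were read from 10 lists of 95 genes, of which 77 were tested. Their median SD was 0.43, and 5 of them had an SD over 1, with the adaptor gene Bank1 highest (1.55) and the NF-kB kinase gene Map3k7 lowest (0.14). Along the Cd79a axis 5 of the 77 rose and 19 fell, where 6.15% of all genes rose and 7.54% fell. The transcription factor gene Tcf3 rose by 0.29 per SD of Cd79a (SE 0.05, adjusted p = 6.67e-05). The early response gene Egr2 fell by 0.73 (SE 0.09, adjusted p = 3.17e-06), the Ras exchange factor gene Rasgrp3 by 0.76 (SE 0.11, adjusted p = 3.28e-05) and the Src family kinase gene Fgr by 0.49 (SE 0.08, adjusted p = 0.000167). Of the genes of kinases and adaptors used by other cells, 4 of 7 fell, namely Fyn, Fgr, Lat and Lcp2, and of the receptor-induced genes 4 of 6 fell, namely Egr1, Egr2, Nr4a1 and Ccl4. Without D2 and D24, 0 of the 77 were called on the Cd79a axis, where 0.0534% of all genes were. The T cell genes of D2 and D24 move with these genes, and their part was not tested.

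Along the Cd79b axis 22 of the 77 were called in either direction, where 9.26% of all genes were. Leaving out D2 and D24 gave 4, all rising, where 0.196% of all genes rose: the calcium channel gene Itpr2, the kinase gene Prkcb, and the B lineage factor genes Spib and Ets1. Prkcb encodes the protein kinase C that carries the receptor signal to NF-kB, and it rose by 0.26 per SD of Cd79b among these 30 tumours (SE 0.06, adjusted p = 0.0474). Along the Btk axis 9 of 77 (11.7%) were called over all tumours, a smaller share than the 15.5% of all genes. Prkcb rose there too (0.25 per SD, SE 0.06, adjusted p = 0.00976), and the adaptor gene Grb2 fell by 0.26 (SE 0.04, adjusted p = 0.000952). Both were called on the Btk axis without D2 and D24 and also without the salivary tumours. Leaving out D2 and D24 gave 5 of the 77 called on that axis, where 5.81% of all genes rose and 5.16% fell. Leaving out the salivary tumours gave 9 of the 77, where 2.32% of all genes rose and 2.18% fell. In that last fit the share of the 77 was the larger one.

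The inhibitory adaptor gene Dok3 followed Syk. It was the only 1 of the 77 called on the Syk axis, rising by 0.40 per SD of Syk (SE 0.06, adjusted p = 0.00221), where 0.107% of all genes were called. It was called without D2 and D24 (adjusted p = 0.00841), where 0.0891% of all genes rose. Without the salivary tumours its adjusted p was 0.199, and 0% of all genes rose. The r of Dok3 with Syk was 0.76 over all tumours and 0.78 without the salivary tumours. Dok3 also rose on the Cd79a axis (0.31 per SD, SE 0.07, adjusted p = 0.0049) and the Cd79b axis (0.27, SE 0.08, adjusted p = 0.0286). It was called on neither of these without D2 and D24 (adjusted p = 0.359 and 0.495). On the Blnk axis Dok3 rose by 0.29 (SE 0.08, adjusted p = 0.0487). The other pathway genes called there were Plcg1, the phospholipase of T cells, which rose by 0.43 (SE 0.09, adjusted p = 0.0128), the adaptor gene Bank1, which fell by 0.95 (SE 0.22, adjusted p = 0.0164), and Malt1 of the NF-kB branch, which fell by 0.19 (SE 0.05, adjusted p = 0.0343). These were 4 of 77, where 1.53% of all genes were called. All 4 were called on the Blnk axis without D2 and D24, where 2.64% of all genes were. None was without the salivary tumours, where 0.0534% of all genes were.

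Along the Blk axis 3 of the 77 rose and 0 fell, where 1.14% of all genes rose and 1.76% fell. The phosphatase gene Ptpn6, which limits receptor signalling, rose by 0.34 per SD of Blk (SE 0.06, adjusted p = 0.00565), the calcineurin gene Ppp3ca by 0.27 (SE 0.07, adjusted p = 0.0236) and the adaptor gene Sh3bp2 by 0.29 (SE 0.08, adjusted p = 0.0425). Without D2 and D24, 3 rose, namely Ptpn6, Ppp3ca and Cd22, where 1.3% of all genes rose. In that fit 1 fell, the calcium channel gene Orai1 (adjusted p = 0.0137), and Sh3bp2 was not called (adjusted p = 0.0717). Without the 11 salivary tumours 0 of the 77 were called, where 0.0267% of all genes were. On the Plcg2 axis the kinase gene Pik3ca fell by 0.17 (SE 0.04, adjusted p = 0.0448), also without D2 and D24 (adjusted p = 0.0294) and not without the salivary tumours (adjusted p = 0.175). On the Pik3ap1 axis 5 rose, namely Stim2, Rasgrp3, Egr2, Dusp2 and Lat, where 1.25% of all genes rose. In the fit without D2 and D24, 0 of the 77 and 0% of all genes were called.

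The genes most like each member in their pattern over the 32 tumours were found by Pearson r among all genes tested. For Cd79a these were Vpreb3 (0.90), Gpd1l (0.87) and Ptp4a3 (0.85), and for Cd79b Chst15 (0.83), Dgkd (0.78) and Metap1d (0.78). Vpreb3, a chaperone of immunoglobulin light chains in precursor B cells, was at 7.87 in D2 and 5.88 in D24, against a median of 11.24 in the others, and its r with Cd79a was 0.69 without these tumours. There the r with Cd79a was 0.43 for Gpd1l and 0.50 for Ptp4a3, and the r with Cd79b was 0.74 for Chst15, 0.63 for Dgkd and 0.62 for Metap1d. For Syk they were Dok3 (0.76), Tmcc1 (0.70) and Fam160b2 (0.70), for Btk Zfp94 (0.75), Rpl12 (0.75) and Crlf3 (0.75), and for Blnk Stambpl1 (0.77), Cdc25b (0.76) and 5830428M24Rik (0.72). For Blk they were Zfp52 (0.76), Cd2 (0.73) and Dennd1c (0.72), for Plcg2 Etfb (0.72), Fgf11 (0.72) and Reep2 (0.71), and for Pik3ap1 Stau2 (0.74), Arhgap26 (0.72) and Fchsd2 (0.71). With D2 and D24 left out, the r with Pik3ap1 was 0.50 for Stau2, 0.56 for Arhgap26 and 0.45 for Fchsd2. Cd2, an adhesion receptor carried by T cells and mouse B cells, had an r with Blk of 0.73 without D2 and D24.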

How the data were processed

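Total RNA of 32 tumours was hybridised to Affymetrix Mouse430_2 arrays, 1 per tumour. The authors deposited log2 values for each probe set. RMA and the affy package are named for them per the submitters' processing notes, without a version. Each of the 32 columns belonged to 1 tumour, with 0 unused. The platform annotation gave 1 gene symbol to 34958 of 45101 probe sets, several to 932 and none to 9211. Entrez identifiers of 34754 were found in RefSeq genes of GRCm38.p6, with 0 symbols changed. Probe sets with a mean under the median of all means (5.78) were dropped, and the one with the highest mean led for each gene, which left 11228 genes. Array medians lay between 5.72 and 5.80, and the number of arrays limits the precision.

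Axes were fitted with limma 3.58.1 in R 4.3.3 (lmFit, eBayes, Benjamini-Hochberg), leaving out the genes of the axis. Pearson and Spearman correlations had two-sided permutation tests of 100000 resamples, made with Python 3.11.15, numpy 2.4.6, scipy 1.17.1 and pandas 2.3.3. Figures were made with matplotlib 3.10.9. The limma step was tested on data with known answers.

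Members and lists were chosen with earlier results of these data known. Named genes were all members, of each pathway list those with the largest and smallest SD and at most 4 with the largest moderated t on a described axis, and for each member the 3 genes with the highest r. Genes of state lists along the member axes, and all genes in counts of 5 or fewer, were named after their values were seen. Batches are not named in the sources used here. The alternatives were no filter on low values, a stricter one at the 75th percentile (7.67), averaging the probe sets of a gene, quantile normalization again, leaving out the 11 salivary tumours, D2 and D24, the 2 tumours farthest from an axis median or each tumour in turn, RNA quality or other-cell scores as covariates, and ranks of the axis.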

Additional observations from a re-analysis of the deposited data

How the results depend on the processing

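The SD over 1 of Blk alone was found under all 7 alternatives and each of the 32 fits with 1 tumour left out. The number of called pairs was 1 in the main setting, 2 with the mean of probe sets, 0 without D2 and D24 or without the 2 far tumours, and 1 to 3 with 1 tumour left out. On the precursor B cell axis the number of members called was 0 in the main setting and 1 with the 75th percentile filter (Cd79a), without D2 and D24 (Blnk) and with the other-cell covariate (Cd79a), and 0 to 1 with 1 tumour left out. On the mature B cell axis it was 2, and 1 with no filter, the 75th percentile filter, the other-cell covariate, ranks, or without D2 and D24, which are also its 2 far tumours, and 1 to 2 with 1 tumour left out. On the T cell axis it was 4, then 0 without D2 and D24 and 1 with ranks, and 2 to 4 with 1 tumour left out. On the myeloid axis it was 2, then 1 without D2 and D24 or with ranks, 0 without the 2 far tumours, and 1 to 3 with 1 tumour left out. On the proliferation axis it was 4, then 2 with quantile normalization or without D2 and D24, 1 with the other-cell covariate, 0 with ranks or without the 2 far tumours, and 1 to 4 with 1 tumour left out. On the Myc axis it was 1, then 2 with the 75th percentile filter, the mean of probe sets or the RNA quality covariate, 4 without the salivary tumours, 0 without D2 and D24 or without the 2 far tumours, and 0 to 3 with 1 tumour left out. The Cd79a slope on the mature B cell axis changed sign, to 0.02915 without D2 and D24 and 0.02862 without the 2 far tumours, which are the same tumours with the score still standardised over all 32. The causes were not tested. Over the called relations, 93 of the other values kept their call and 57 lost it, the 2 that changed sign among them, and of those with 1 tumour left out 475 kept it and 37 lost it. The T cell axis was not run with the 75th percentile filter, which left under 3 of its genes, nor the T cell and myeloid axes with the other-cell covariate that holds them. No paired analysis was possible because the labels give 1 group.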
